A study of Homo sapiens with 29 samples.

Results

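Chemokine genes were followed in the established human lung fibroblast line IMR90 ER:RAS during oncogene-induced senescence (OIS) and after knockdown of SMARCA4. The set holds 8 of the 28266 gene symbols in the count table, chosen by name: the ligands CCL2, CCL20, CXCL10, CXCL12, CXCL14, CXCL16 and CX3CL1, and the receptor ACKR3. All 8 had a row. CCL2, CCL20, CXCL10, CXCL12 and CX3CL1, 5 of the 8, held enough counts to be tested in the comparison of groups, and CXCL14, CXCL16 and ACKR3 did not.

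In this line oncogenic RAS is fused to the hormone-binding part of the estrogen receptor, so that 4-hydroxytamoxifen (4OHT) activates it and the solvent DMSO does not. In all, 3 groups of 6 RNA-seq libraries were compared, all collected on day 7 after siRNA transfection and treatment. DMSO_siNT were growing cells with non-targeting siRNA, 4OHT_siNT were senescent cells with the same control, and 4OHT_siSMARCA4 were senescent cells with siRNA against SMARCA4, the ATPase of the SWI/SNF chromatin remodeller also called BRG1. Each arm used siRNAs numbered 2 and 4, and sets named with a number and V or VM, whose meaning is not given in the sources used here. All 18 libraries derive from this 1 line, and nothing says whether the libraries of a group came from separate cultures, so p-values measure the spread between these libraries. A library is named here by its siRNA number and set, so 4-2V is siRNA 4 of set 2V.

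Chemokines are small secreted proteins that steer leukocytes through G protein-coupled receptors and are named for the spacing of their first cysteines (CC, CXC and CX3C). CCL2 draws monocytes through CCR2, CCL20 draws CCR6+ lymphocytes and dendritic cells, and CXCL10 is an interferon-inducible ligand that draws T cells and NK cells through CXCR3. CXCL12 is the homeostatic ligand of CXCR4 that stromal cells make, and ACKR3 is an atypical receptor that binds and removes it. CXCL14 is a homeostatic chemokine, and CXCL16 and CX3CL1 are made as membrane-anchored proteins that proteases release. Inflammatory chemokines are a known part of the senescence-associated secretory phenotype (SASP).

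Total counts were 9657309 to 18039313 per library. The libraries were not balanced over the set letters: all 6 of 4OHT_siNT were VM, DMSO_siNT held 3 V and 3 VM libraries, and 4OHT_siSMARCA4 held 3 V libraries, 2 VM libraries and 1 library without a matching label, called unlabelled here. DMSO_siNT 4-2V stood apart, with the lowest total and the most genes detected (17915, against 15993 to 16888 elsewhere). SMARCA4 itself stood at 217 ± 15.3 CPM (SD, n = 6) in DMSO_siNT, 301 ± 20.9 in 4OHT_siNT and 99.0 ± 27.6 in 4OHT_siSMARCA4. All 10 fibroblast markers checked were above 1 CPM on average in each group. Of 6 leukocyte markers, 1 (CD68) was, while PTPRC stayed at or below 4 counts in every library. No NK cell marker was above 1 CPM in any group, and NKG7 and GNLY were at 0 counts throughout. Of 5 epithelial markers 4 were above 1 CPM in DMSO_siNT, 3 in 4OHT_siNT and 2 in 4OHT_siSMARCA4, and of 4 endothelial markers 1 (VWF) was in each group. CPM stands for counts scaled by TMM to a common library size. Genes are called where edgeR's quasi-likelihood test gave an adjusted p below 0.05. In bulk RNA, more cells that make a transcript and more transcript per cell cannot be told apart.

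The promoters of the 3 members with the largest shifts between groups are shown because CCL20 and CXCL10 moved up and CXCL12 down in the comparisons that follow. Each is the RefSeq window (GRCh38.p14) of 300 bases, from 250 before to 50 after the transcript start, written along the gene's strand. RefSeq windows were at hand for 4 of the 8 members. Capitals mark matches to the NF-kappaB consensus, to the interferon-stimulated response element (ISRE, TTTCNNTTTC) and to the AP-1 site (TGANTCA), each searched on both strands, and to the TATA box (TATAAA) on the strand shown.
CXCL10, chr4:76023448-76023747, minus strand: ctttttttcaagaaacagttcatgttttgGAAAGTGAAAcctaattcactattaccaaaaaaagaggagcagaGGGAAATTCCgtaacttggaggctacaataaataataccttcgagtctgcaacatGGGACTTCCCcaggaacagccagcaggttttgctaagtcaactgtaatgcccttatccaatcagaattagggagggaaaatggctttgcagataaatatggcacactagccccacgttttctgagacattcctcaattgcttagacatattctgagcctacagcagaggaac
CCL20, chr2:227813592-227813891, plus strand: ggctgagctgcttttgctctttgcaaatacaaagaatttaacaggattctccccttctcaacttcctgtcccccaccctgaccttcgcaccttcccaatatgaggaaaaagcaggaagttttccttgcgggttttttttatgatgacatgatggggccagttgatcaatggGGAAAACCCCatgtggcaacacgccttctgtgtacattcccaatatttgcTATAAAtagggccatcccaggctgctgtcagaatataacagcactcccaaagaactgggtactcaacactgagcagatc
CXCL12, chr10:44385048-44385347, minus strand: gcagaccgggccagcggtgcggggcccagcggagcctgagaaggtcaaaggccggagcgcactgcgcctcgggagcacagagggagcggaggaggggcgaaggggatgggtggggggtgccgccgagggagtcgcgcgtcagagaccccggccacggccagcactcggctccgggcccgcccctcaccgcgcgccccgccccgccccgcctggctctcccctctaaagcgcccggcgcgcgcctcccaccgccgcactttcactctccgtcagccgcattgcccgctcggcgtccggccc
The CXCL10 window held an ISRE match at -221 to -212 and 2 NF-kappaB matches at -177 to -168 and -122 to -113, counted from the transcript start. The CCL20 window held 1 NF-kappaB match at -79 to -70 and a TATA box at -29 to -24. None of these letters occurred in the CXCL12 window, and the CXCL14 window held 1 AP-1 match at -92 to -86. No 2 matches overlapped. Over all 35116 RefSeq promoters of this length, 11.3% held an NF-kappaB match, 3.57% an ISRE match, 7.71% an AP-1 match and 7.33% a TATA box. A match is a description of the letters and not a site shown to be bound.

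In GENCODE 44 (hg38) CCL2 lies on chr17:34255274-34257208 (plus strand), CXCL16 on chr17:4733533-4739928 (minus), CX3CL1 on chr16:57372477-57385044 (plus), CXCL14 on chr5:135570679-135579279 (minus), ACKR3 on chr2:236567787-236582354 (plus), CCL20 on chr2:227805739-227817564 (plus), CXCL10 on chr4:76021118-76023497 (minus) and CXCL12 on chr10:44370165-44386493 (minus). All are protein-coding genes. The GENCODE starts of CCL20 and CXCL12 lie upstream of the RefSeq windows shown, and that of CXCL14 lies upstream of its window, which is not shown.

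The rank of the members changed between groups. Per kilobase of merged exons of all annotated transcripts, CCL2 led in DMSO_siNT with 18.01 ± 10.8 CPM per kb, above CXCL12 with 2.64 ± 0.32 and CXCL10 with 1.10 ± 1.80, and the ranges of the latter pair overlapped. In 4OHT_siNT, CCL2 with 14.9 ± 1.40 and CCL20 with 13.3 ± 3.12 overlapped, CXCL10 followed with 7.54 ± 1.36 without overlap, and CXCL12 was last with 0.0218 ± 0.0175. In 4OHT_siSMARCA4, CXCL10 had the highest mean, 36.6 ± 9.26, then CCL20 with 28.4 ± 15.0 and CCL2 with 23.6 ± 13.2, each overlapping the next. CXCL14, CXCL16, CX3CL1 and ACKR3 stayed below 0.234 CPM per kb on average in every group.

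**Figure D1:**
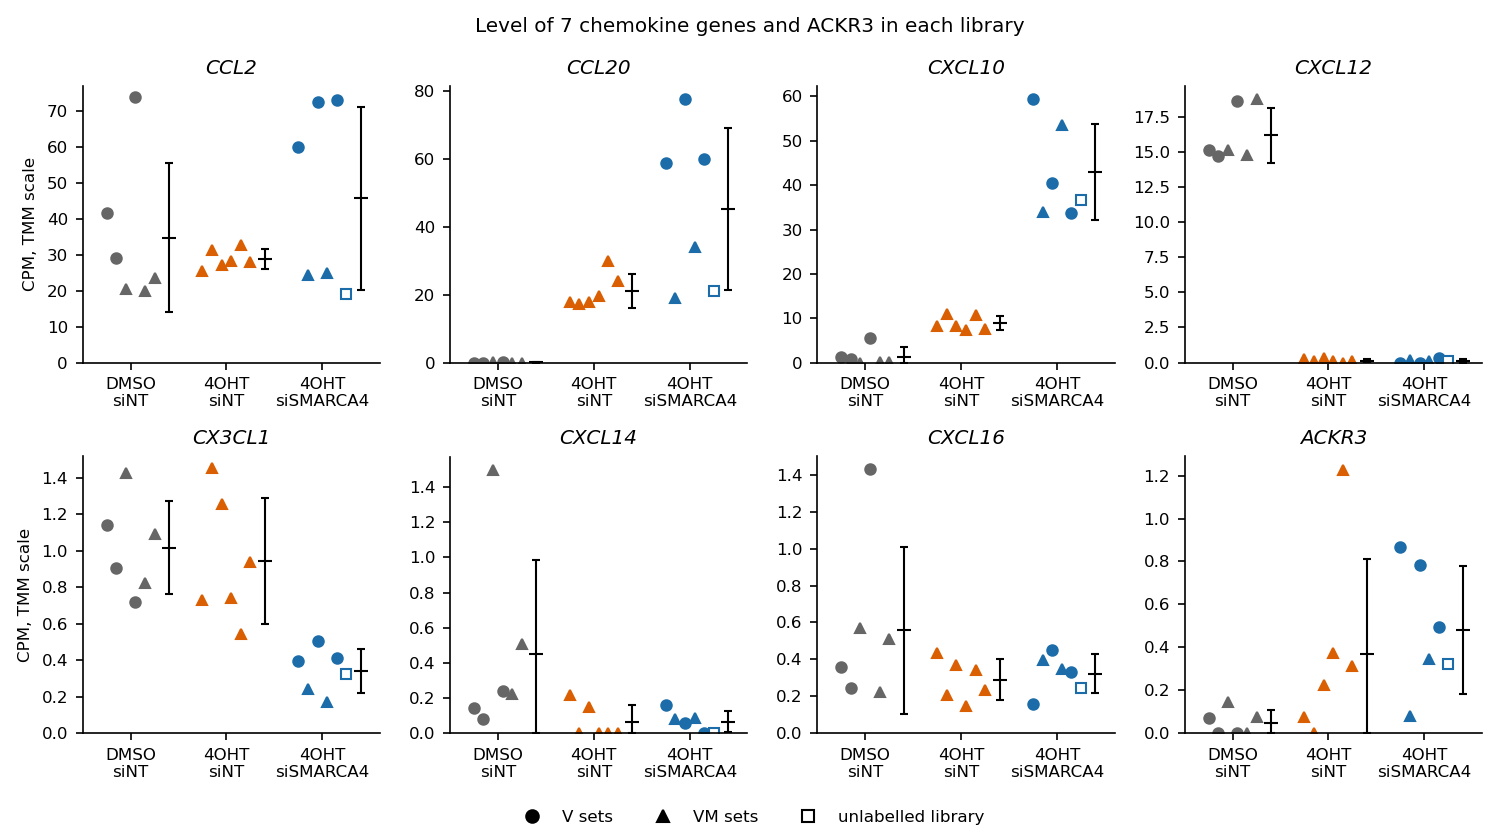
TMM-scaled CPM of the 8 members (linear axes, each panel with its own scale) in every library of the 3 groups, with circles for V sets, triangles for VM sets and an open square for the unlabelled library; the bar is the mean with its SD over 6 libraries, cut at 0. CXCL12 lies above 14 CPM in all 6 DMSO_siNT libraries and below 0.34 CPM in the other groups, CXCL10 lies higher in each 4OHT_siSMARCA4 library than in any other, and CCL2 and CCL20 split by set letters within 4OHT_siSMARCA4.

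The first comparison, 4OHT_siNT over DMSO_siNT, asks which chemokines change when RAS drives the cells into senescence. CCL20 and CXCL10 rose, CXCL12 fell to near 0, and CCL2 and CX3CL1 were not called. Of the 5 members tested 3 were called, and 52.8% of all 13136 genes tested were called in this comparison, so the count says little by itself and the sizes carry the description. Within VM sets alone 4 of 5 were called, against 53.5% of all genes tested there.

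CCL20 was all but silent in growing cells, with 0 to 4 counts per library and 5 counts in all 6. In 4OHT_siNT it ranged from 17.3 CPM through a median of 18.8 to 29.95, with a mean of 21.2 ± 4.98 (SD, n = 6). Every 4OHT_siNT library lay above every DMSO_siNT library. The fitted log2 fold change was 8.13 ± 0.58 (SE), with an adjusted p of 8.03e-10 in edgeR. Because the base is so low, the ratio of pooled counts is the better gauge: 321-fold higher, with an exact 95% interval of 137 to 990 for counting error only. Over VM sets, with 4 counts in DMSO_siNT, the ratio was 218 (85.0 to 801).

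CXCL10 ranged in DMSO_siNT from 0 through a median of 0.486 to 5.50 CPM and in 4OHT_siNT from 7.27 through 8.29 to 10.9, so the groups did not overlap. The means were 1.29 ± 2.12 and 8.86 ± 1.60 CPM. The log2 fold change was 3.00 ± 0.57, 8.01-fold, with an adjusted p of 0.000203 in edgeR. The size of this rise depended on which DMSO_siNT libraries served as the base. DMSO_siNT 4-2V, the library that stood apart, held 46 of the 76 CXCL10 counts of its group, and without it the log2 fold change was 4.29. Within VM sets DMSO_siNT held 3 CXCL10 counts in all, and the ratio of pooled counts was 122, with an exact interval of 41.7 to 594.

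CXCL12 showed the opposite course. It ranged from 14.7 through 15.2 to 18.8 CPM in DMSO_siNT, with a mean of 16.2 ± 1.95 and 156 to 258 counts per library. In 4OHT_siNT it held 0 to 4 counts per library, 11 in all, or 0 to 0.296 CPM. The groups lay apart, with a log2 fold change of -6.83 ± 0.38 and an adjusted p of 2.14e-11 in edgeR. The pooled counts were 121-fold higher in DMSO_siNT (67.2 to 242), and within VM sets the ratio was 122 (67.7 to 246). The summed level of the 5 epithelial markers was also lower in senescence, at 103 to 144 CPM in DMSO_siNT and 62.4 to 78.9 in 4OHT_siNT (34.1 to 56.97 in 4OHT_siSMARCA4). In the first pair KRT19 was at 42.1 and 1.27 CPM on average and KRT18 at 63.2 and 61.0. Among fibroblast markers DCN went from 625 to 17.4 CPM, LUM from 93.6 to 23.5 and COL1A2 from 6623 to 2315. Only VIM and FAP of the fibroblast markers had a higher mean in 4OHT_siNT. The part of any of these markers in the CXCL12 values was not tested. CXCL12 was steady in growing cells, where V and VM libraries had means of 16.2 ± 2.14 and 16.2 ± 2.22 CPM (n = 3 each).

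CCL2 was expressed in every library, and its mean did not rise with senescence over all libraries. It ranged from 19.9 through 26.4 to 74.1 CPM in DMSO_siNT and from 25.5 through 28.2 to 32.8 in 4OHT_siNT. The narrow 4OHT_siNT range lay inside the wide DMSO_siNT range. The log2 fold change was -0.26 ± 0.35 (95% interval -0.997 to 0.47, adjusted p 0.547 in edgeR). Within VM sets the sign turned: the 3 DMSO_siNT libraries held 19.9, 20.6 and 23.5 CPM, all below the 6 of 4OHT_siNT, and the log2 fold change was 0.44 ± 0.11 (adjusted p 0.00313 in edgeR). Without DMSO_siNT 4-2V, which gave the highest value, it was 0.11 over the remaining libraries.

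CX3CL1 held 6 to 21 counts per library in these groups. Its mean was 1.02 ± 0.257 CPM in DMSO_siNT and 0.944 ± 0.347 in 4OHT_siNT, with overlapping ranges and a log2 fold change of -0.12 (95% interval -0.68 to 0.44, adjusted p 0.716 in edgeR). CXCL14, CXCL16 and ACKR3 stayed at 21, 12 and 18 counts or below in every library. CXCL14 held 36 counts over DMSO_siNT and 5 over 4OHT_siNT, a ratio of 7.86 (3.08 to 25.7), and 21 of the 36 came from DMSO_siNT 2-2VM, without which the ratio was 4.02 (1.39 to 14.1). ACKR3 held 4 counts over DMSO_siNT and 31 over 4OHT_siNT, a ratio of 7.10 (2.51 to 27.7), and 18 of the 31 came from 4OHT_siNT 4-2VM, without which it was 3.62 (1.12 to 15.2). CXCL16 held 38 and 24 counts, 1.73-fold higher in DMSO_siNT (1.01 to 3.01). When every gene with at least 1 count entered the test, CXCL14 (log2 fold change -2.72, adjusted p 0.0139 in edgeR) and ACKR3 (2.65, adjusted p 0.0214) were called and CXCL16 (-0.81, adjusted p 0.179) was not.

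**Figure D2:**
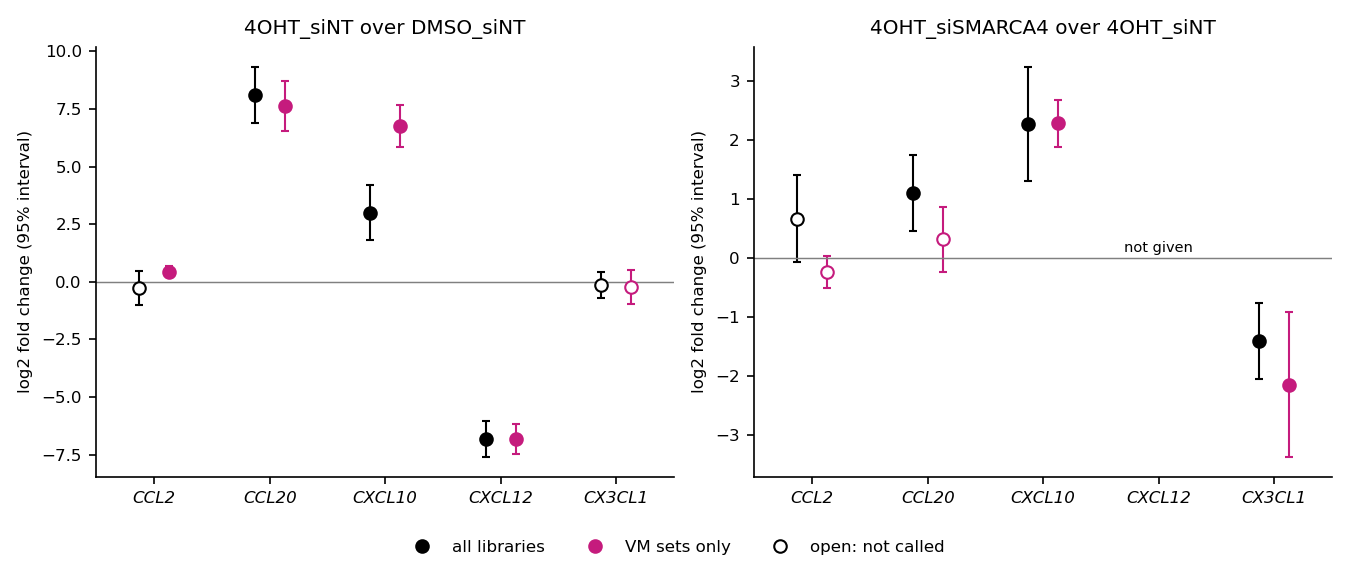
Fitted log2 fold changes with 95% intervals of the 5 members tested, for 4OHT_siNT over DMSO_siNT (left) and 4OHT_siSMARCA4 over 4OHT_siNT (right), over all libraries (black) and within VM sets (magenta), filled where called; no value is given for CXCL12 on the right, where no library held 5 counts. CXCL10 rises in both panels, while the values of CCL2 change sign between all libraries and VM sets; the VM value of CXCL10 on the left rests on 3 DMSO_siNT counts.

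The central comparison, 4OHT_siSMARCA4 over 4OHT_siNT, asks how SMARCA4 knockdown changes these genes in senescent cells. CXCL10 and CCL20 rose and CX3CL1 fell over all libraries, 3 of 5 members tested, where 10.6% of all genes tested were called. Within VM sets, the only letters that both groups share, CXCL10 and CX3CL1 were called, 2 of 5, where 21.0% of all genes tested were called.

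CXCL10 rose. Its 6 values after knockdown were 40.5, 59.4 and 33.8 CPM in the V libraries 4-2V, 2-3V and 4-3V, 53.5 and 33.9 CPM in the VM libraries 4-2VM and 2-3VM, and 36.7 CPM in the unlabelled library. The lowest of them was above the highest 4OHT_siNT value of 10.9. The mean rose from 8.86 ± 1.60 to 42.97 ± 10.9 CPM, a log2 fold change of 2.28 ± 0.46 or 4.84-fold (adjusted p 0.0036 in edgeR). Within VM sets it was 2.28 ± 0.19, 4.86-fold (adjusted p 2.91e-06 in edgeR), and the 18 fits that left out 1 library gave 2.16 to 2.34, called each time. With the siNT 4 libraries alone as controls the size was 2.31 but the adjusted p was 0.0564, and with siSMARCA4_4 alone it was 2.26 with an adjusted p of 0.0627.

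CCL20 rose over all libraries, and the rise followed the set letters. The V libraries 4-2V, 2-3V and 4-3V held 77.7, 59.0 and 60.1 CPM. The VM libraries 4-2VM and 2-3VM held 34.2 and 19.1 CPM and the unlabelled library 21.2, where 4OHT_siNT, all VM, spanned 17.3 to 29.95. The V values were above every 4OHT_siNT library, and the VM and unlabelled values overlapped them except for 4-2VM.

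The log2 fold change of CCL20 was 1.10 ± 0.31, 2.14-fold, with an adjusted p of 0.0274 in edgeR. Within VM sets it was 0.31 ± 0.26 (95% interval -0.23 to 0.86, adjusted p 0.41 in edgeR) and was not called. The call was also lost, with adjusted p of 0.0566 to 0.0685, when 4OHT_siNT 2-1VM, 2-2VM, 2-3VM or 4-1VM, or 4OHT_siSMARCA4 4-2V, 2-3V or 4-3V, was left out, while the log2 fold change stayed between 0.86 and 1.07 in those fits.

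CCL2 split in the same way. After knockdown the V libraries 4-2V, 2-3V and 4-3V held 72.6, 60.2 and 73.2 CPM, the VM libraries 25.1 and 24.5, and the unlabelled library 18.99, against 25.5 to 32.8 in 4OHT_siNT. All 3 V values lay above the whole control range and the other 3 lay below it. The log2 fold change over all libraries was 0.66 ± 0.35 (95% interval -0.07 to 1.40, adjusted p 0.25 in edgeR). Within VM sets it was -0.24 ± 0.12 (-0.50 to 0.03, adjusted p 0.187 in edgeR), so the direction turned and neither value was called. With the unlabelled library counted as VM, a choice made after seeing the data, it was -0.36 (adjusted p 0.0308 in edgeR).

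CX3CL1 fell. It held 8 to 21 counts per library in 4OHT_siNT and 2 to 9 after knockdown, 78 and 28 in all. The mean fell from 0.944 ± 0.347 to 0.341 ± 0.121 CPM, and the groups did not overlap. The log2 fold change was -1.41 ± 0.31, 2.66-fold lower, with an adjusted p of 0.00542 in edgeR. Within VM sets it was -2.15 ± 0.58 (adjusted p 0.0164 in edgeR) on 5 counts after knockdown. With siNT 4 alone as control it was -1.07 (adjusted p 0.111), and with siSMARCA4_4 alone -1.31 (adjusted p 0.124).

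CXCL12 did not return: it held 11 counts over 4OHT_siNT and 8 over 4OHT_siSMARCA4, too few to detect a difference at this depth. CXCL14 held 5 counts in either group, CXCL16 held 24 and 26, and ACKR3 held 31 and 40.

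Set beside growing cells, the same genes spanned wide ranges. In 4OHT_siSMARCA4 over DMSO_siNT 4 of 5 members were called, where 50.5% of all genes tested were, and this comparison shares libraries with both others. CCL20 pooled counts were 720-fold higher (308 to 2218) and CXCL12 counts were 159-fold higher in DMSO_siNT (80.4 to 369). CXCL10 rose by a log2 fold change of 5.28 ± 0.58 (adjusted p 2.53e-07 in edgeR), or 6.56 without DMSO_siNT 4-2V, and CX3CL1 had -1.54 ± 0.31 (adjusted p 0.000306). CCL2 was not called, at 0.40 ± 0.35 (adjusted p 0.354 in edgeR), but without DMSO_siNT 4-2V it was, at 0.77 ± 0.30 (adjusted p 0.035).

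This pair of groups can be compared within either set letter. Within V sets 3 of 4 members tested were called, against 21.1% of all genes, and within VM sets 4 of 5, against 43.9%. CXCL10 pooled counts were 20.9-fold higher after knockdown within V sets (16.6 to 26.8) and 594-fold higher within VM sets (203 to 2886), on 73 and 3 DMSO_siNT counts. CXCL12 was higher in DMSO_siNT within both, 169-fold (65.7 to 623) and 131-fold (44.5 to 635). CCL2 was called within neither, with log2 fold changes of 0.51 ± 0.34 and 0.20 ± 0.14.

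**Figure D3:**
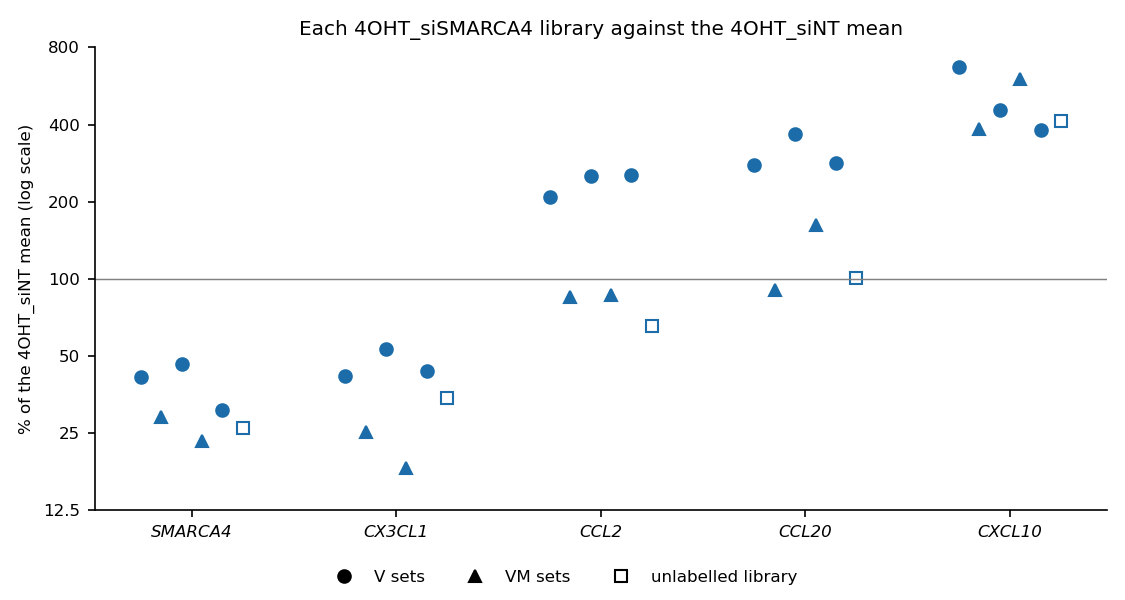
Each of the 6 4OHT_siSMARCA4 libraries as a percentage of the 4OHT_siNT mean (log axis, line at 100%) for SMARCA4, CX3CL1, CCL2, CCL20 and CXCL10, with circles for V sets, triangles for VM sets and an open square for the unlabelled library. CXCL10 stands at 382% to 671% in all 6 libraries, while CCL2 is at 208% to 254% in V libraries and at 65.7% to 86.8% in the others.

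The set letters were then compared within a group, where the labels allow it. In DMSO_siNT, VM over V, 2 of 6 members tested were called, where 0.324% of all genes were. CCL2 held 41.8, 29.2 and 74.1 CPM in the V libraries 2-1V, 2-2V and 4-2V and 20.6, 19.9 and 23.5 in the VM libraries 2-2VM, 4-2VM and 4-3VM. The ranges did not meet, and the log2 fold change was -1.15 ± 0.23 (adjusted p 0.0455 in edgeR). CXCL10 held 17, 10 and 46 counts in the V libraries and 0, 2 and 1 in the VM libraries, a ratio of 29.0 (9.53 to 144), with an adjusted p of 0.0362 in edgeR. Both calls lay close to the threshold. Over 17 fits that left out 1 library, CCL2 kept its call in the 2 without DMSO_siNT 2-2V or 4-2V and lost it in the other 15, with adjusted p of up to 0.165. CXCL10 lost its call in 8, those without DMSO_siNT 2-2VM, 4-2VM or 4-3VM, 4OHT_siNT 2-1VM, 4-1VM, 2-2VM or 4-3VM, or 4OHT_siSMARCA4 4-2V, with adjusted p of up to 0.168. Without DMSO_siNT 4-2V the log2 fold change of CCL2 was -0.72 and that of CXCL10 -3.64, and a fit of the groups compared alone called neither (adjusted p 0.834 for both in edgeR).

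In 4OHT_siSMARCA4, VM over V, 1 of 6 members was called, CCL2, where 0.101% of all genes were. Its log2 fold change was -1.46 ± 0.27 (adjusted p 0.0494 in edgeR), and of the 17 fits that left out 1 library 4 kept the call, those without DMSO_siNT 2-1V, 2-2V or 4-2V or 4OHT_siSMARCA4 2-3V. The other 13 lost it, with adjusted p of up to 0.491. CCL20 had -1.29 ± 0.35 (adjusted p 0.2 in edgeR, 0.0228 without DMSO_siNT 4-2V), with ranges that did not meet, and CXCL10 had -0.02 ± 0.43 (95% interval -0.94 to 0.89). ACKR3 held 31 counts over the V libraries and 5 over the VM libraries, a ratio of 3.51 (1.35 to 11.6). With the unlabelled library counted as VM, as its column name reads (chosen after seeing the data), CCL2 (adjusted p 0.00618 in edgeR) and CCL20 (adjusted p 0.0352) were both called.

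SMARCA4 itself moved with the letters. It was left at 46.7%, 41.3% and 30.8% of the 4OHT_siNT mean in the V libraries 4-2V, 2-3V and 4-3V, at 23.3% and 28.9% in 4-2VM and 2-3VM, and at 26.1% in the unlabelled library. Its log2 difference, VM over V, was -0.59 ± 0.17 (adjusted p 0.247 in edgeR). The V libraries thus held more SMARCA4, CCL2 and CCL20 than the VM and unlabelled libraries. Within a letter the order did not hold throughout. Of the V libraries, 4-3V had the least SMARCA4 and the most CCL2, while 4-2V had the most SMARCA4 and the most CCL20. The part of the remaining SMARCA4 in the CCL2 and CCL20 levels was not tested. CCL2 differed by set letters in DMSO_siNT as well, where SMARCA4 was at 207 ± 15.7 CPM in V and 227 ± 6.01 CPM in VM libraries.

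The test of the set difference itself, the VM effect minus the V effect of 4OHT_siSMARCA4 over DMSO_siNT, called 0 of 6 members in edgeR, where 0.0864% of all genes were called. At an unadjusted p under 0.05 it picked 1 member, CXCL10, with a log2 difference of 4.77 ± 1.02 (adjusted p 0.0924). Of all 13887 genes tested 1338 reached that unadjusted p. DESeq2 called 1 member and 134 genes in all. CCL2 had -0.31 ± 0.35 and CX3CL1 -1.32 ± 0.70.

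The siRNAs of an arm were compared last. Among 4OHT_siNT libraries, siNT 2 over siNT 4 gave 0 of 6 members called (0.0732% of all genes). At an unadjusted p under 0.05 there were 2 members, and 1447 of all 13659 genes tested. One of these members was ACKR3, at 4 counts over the siNT 2 libraries and 27 over the siNT 4 libraries (log2 fold change -2.64 ± 0.92, adjusted p 0.289 in edgeR). The other was CXCL12, at 9 and 2 counts. Between siSMARCA4_2 and siSMARCA4_4 0 of 6 members were called (0.00732% of all genes), with 0 at an unadjusted p under 0.05 (878 of all genes). CXCL10 had a log2 fold change of 0.04 ± 0.59 (95% interval -1.21 to 1.29), CCL20 -0.78 ± 0.39 (-1.60 to 0.04) and CCL2 -0.71 ± 0.49 (-1.74 to 0.33). The siRNA difference of the knockdown effect called 0 of 6 (0.0146% of all genes), again with 0 at an unadjusted p under 0.05 (995 of all genes). DESeq2 called 0 members in each of these 3 comparisons. The intervals leave room for differences of over 2-fold between the siRNAs.

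The other genes of the chemokine system were read from lists. Of 8 genes listed as neutrophil chemokines 6 were tested, all of them CXC ligands that bind CXCR1 or CXCR2, and all 6 rose in senescence. In that comparison 52.8% of all genes tested were called. The median log2 fold change of the 6 was 7.99 beside -0.05 over all genes tested. CXCL8 went from 7.61 ± 7.96 to 1755 ± 415 CPM. After knockdown 3 of 6 rose, where 10.6% of all genes tested were called. These were CXCL2 (1.57 ± 0.23), CXCL5 (1.08 ± 0.31) and CXCL3 (0.84 ± 0.24). The median of the 6 was 0.96 beside 0.01 over all genes tested. Within VM sets 2 of 6 were called, CXCL2 and CXCL8, with a median of 0.31, where 21.0% of all genes tested were called. CXCL5 had 0.47 ± 0.21 and CXCL3 0.15 ± 0.19 there, and whether their change differs by set letters was not tested.

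Of 28 other chemokines only CCL26, an eosinophil attractant, held enough counts to test, and the other 27 stayed at 12 counts or below in every library. CCL26 rose in senescence (0.90 ± 0.30, adjusted p 0.016 in edgeR) and had 0.26 ± 0.27 after knockdown (adjusted p 0.6). CXCL9 and CXCL11, which like CXCL10 bind CXCR3, held at most 2 and 11 counts in any library. Their totals over 4OHT_siNT and 4OHT_siSMARCA4 were 2 and 4 for CXCL9 and 37 and 26 for CXCL11, where CXCL10 had 737 and 3385.

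Among 22 receptor genes 5 were tested. CXCR4, which binds CXCL12, held 0 counts in all 6 DMSO_siNT libraries and 23 to 46 in each 4OHT_siNT library, at least 65.9-fold higher when 3 counts over the group are taken as the floor. It fell after knockdown from 2.63 ± 0.713 to 0.180 ± 0.169 CPM (log2 fold change -3.82 ± 0.43, adjusted p 0.000103 in edgeR). CXCL12 was thus high where CXCR4 was at 0 in DMSO_siNT, the reverse held in 4OHT_siNT, and both were near 0 in 4OHT_siSMARCA4. CCR1, a receptor of several CC chemokines, held 2 counts over DMSO_siNT and 155 over 4OHT_siNT. It fell by 1.09 on the log2 scale after knockdown (adjusted p 0.00859 in edgeR, 0.0833 within VM sets). CCR10 fell in senescence over all libraries (-0.72 ± 0.29, adjusted p 0.0465 in edgeR) and was not called within VM sets (-0.44 ± 0.37, adjusted p 0.346). The list gave 2 called higher and 1 lower in senescence, and these 3 of 5 are near the 52.8% of all genes called there. The median was 0.95, with CXCR4 at its bound also 0.95. After knockdown 0 were called higher and 2 lower (median -0.52), where 10.6% of all genes tested were called. The receptors of CCL2, CCL20 and CXCL10 were near absent: CCR2 and CCR6 held 1 count each over all 18 libraries and CXCR3 held 0.

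The processing and signalling partners include the proteases ADAM10 and ADAM17, which shed CX3CL1 and CXCL16, and DPP4, which trims CXCL10 and CXCL12. All 9 were tested, and 4 rose and 3 fell in senescence (median 0.10), where 52.8% of all genes tested were called. Of these 9, 0 were called by edgeR after knockdown (median 0.12), where 10.6% of all genes tested were called. The single one at an unadjusted p under 0.05 was RHBDF1, where 3244 of all 13136 genes tested reached that. RHBDF1 was called lower when VM sets were fitted alone (-0.81 ± 0.14, adjusted p 0.00109 in edgeR). DPP4 rose from 82.1 ± 28.4 to 251 ± 16.3 CPM (log2 fold change 1.61 ± 0.21, adjusted p 2.51e-06 in edgeR), and ADAM10 fell by 0.41 on the log2 scale (adjusted p 0.00585, and 0.0508 within VM sets, where it was not called).

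Of 15 transcription factors and regulators that act on chemokine genes, 9 rose and 1, FOSL1, fell in senescence, with a median of 0.58. These 10 of 15 called are near the 52.8% of all genes called there. RELB, a non-canonical NF-kappaB subunit, rose by 1.59 ± 0.15 and was the single gene called after knockdown (0.59 ± 0.15, adjusted p 0.014 in edgeR; list median 0.04). Within VM sets NFKB2, CEBPB, RELB and NFKBIA were called higher after knockdown, with RELB at 0.77 ± 0.15 (adjusted p 0.00253 in edgeR).

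**Figure D4:**
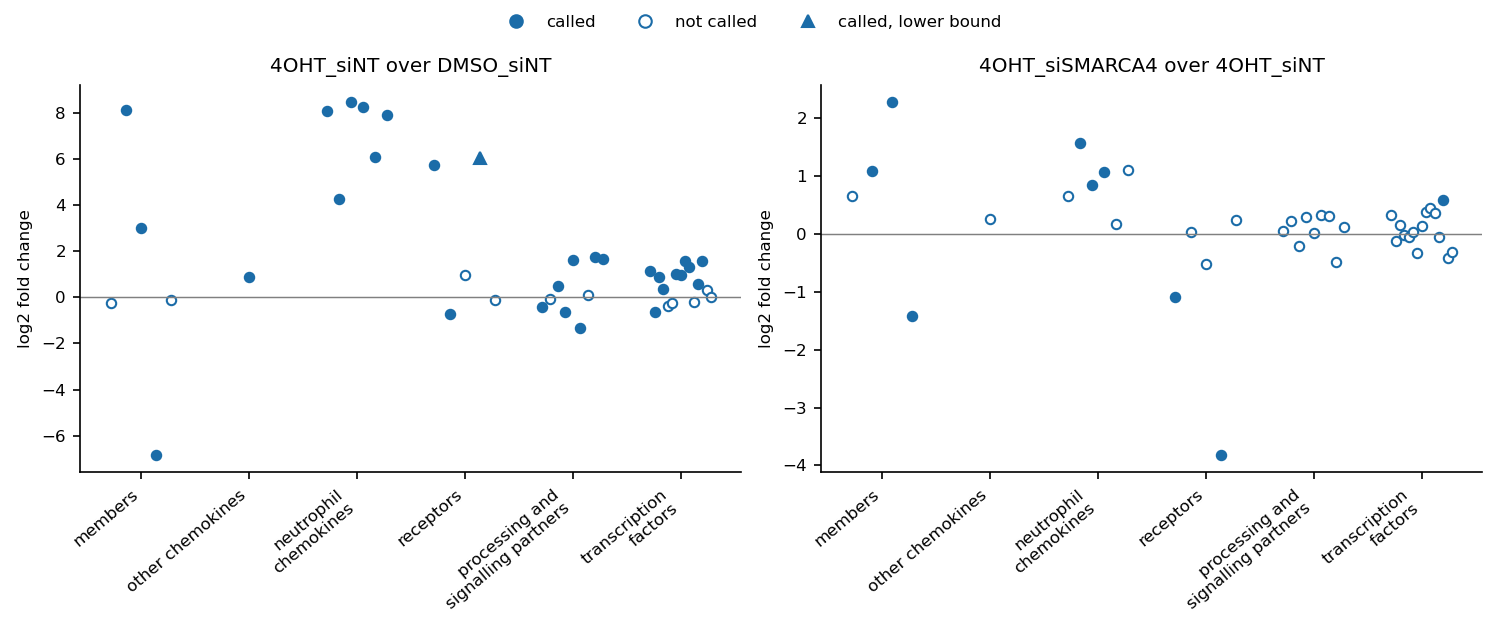
Log2 fold changes of the members and of 5 chemokine-system lists in 4OHT_siNT over DMSO_siNT (left) and 4OHT_siSMARCA4 over 4OHT_siNT (right), 1 point per gene tested, filled where called; the triangle is CXCR4, drawn at its lower bound against 3 counts. All 6 neutrophil chemokines are high on the left, and on the right CXCL10 is the highest point and CXCR4 the lowest.

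The genes most like each tested member over the 18 libraries, by Pearson correlation of log2 CPM, differed between members. These are descriptions over libraries that share groups and sets. CXCL10 ran closest with SOD2 (r = 0.98), TMEM51 (0.97) and NFKBIA (0.97), CCL20 with NRG1, CSF3 and NRIP3 (each 0.99), and CXCL12 with DIAPH3, FZD7 and SHCBP1 (each 0.99). CX3CL1 ran closest with SYT1 (0.92), AIG1 (0.91) and OSBPL7 (0.91), and CCL2 with TSLP (0.80), P4HA1 (0.79) and NOL9 (0.79).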

How the data were processed

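RNA was measured in 18 libraries. Directional libraries of polyadenylated RNA were sequenced as single-end reads, per the study's methods. Per the submitters' processing notes STAR 2.7.8a, DESeq2 1.36.0 and hg38 were used, and the counting program, annotation and use of strand are not given in the sources used here. The authors deposited read counts for each gene without normalization, in 36 columns, 1 per library and lane, and all columns were used.

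The 2 lanes of a library were summed. Of 29 labelled samples 17 matched a library and 12 were not analysed here. A further library of 4OHT_siSMARCA4 with siRNA 2 had a set name that no title carries and was kept in its group. No pair of libraries agreed within sampling noise.

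Genes were filtered with filterByExpr (minimum count 10), scaled with TMM and tested two-sided by quasi-likelihood in edgeR 4.0.16 (R 4.3.3), over all libraries, with Benjamini-Hochberg adjustment over all genes tested (13136 between groups, 13887 by set letters, 13659 by siRNA). Standard errors derive from the F statistic. Ratios of pooled counts, scaled to the effective library sizes, have exact Clopper-Pearson intervals that cover counting error only. No fold is given where no library of the groups compared held 5 counts, a limit chosen after seeing the data. Totals of 9657309 to 18039313 counts set the precision of low genes. The steps were tested on simulated data.

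Members and lists were chosen with earlier results of these data known. The rule for naming took the members, SMARCA4, the 3 genes most like each tested member, and those genes of the lists on which a statement rests. Alternatives covered scaling, DESeq2 1.42.0, filters, thresholds, sets, siRNAs and leaving out each library. The unlabelled library placed in VM sets was added after seeing the data. One result on the transcription factor list is not reported here.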

Additional observations from a re-analysis of the deposited data

How the results depend on the processing

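With every gene of at least 1 count tested, 5 of 8 members and 7373 genes in all were called in 4OHT_siNT over DMSO_siNT. The same filter called 1 member in the set difference. With at least 10 counts in every library 0 members were called in each comparison of groups and by set letters in 4OHT_siSMARCA4, and 1 by set letters in DMSO_siNT, because only CCL2 was then tested. In 4OHT_siSMARCA4 over 4OHT_siNT 0 members were called with siNT 4 only and 1 with siSMARCA4_4 only. By set letters in 4OHT_siSMARCA4, RLE and upper quartile scaling called 0, DESeq2 2, and the unlabelled library put in VM sets 2. In the set difference DESeq2 called 1, and so did that placement of the library. In these 2 comparisons DESeq2 called 157 and 134 genes in all, where the main fits called 14 and 12. Fits of only the groups compared called 0 by set letters in DMSO_siNT and 1 (CCL20) between the siNT siRNAs. Over all genes they called 0 and 2970, where the main fits called 45 and 10. The cause of these shifts was not tested. Leaving out 1 library gave 3 to 3 members called in 4OHT_siNT over DMSO_siNT, 2 to 3 in 4OHT_siSMARCA4 over 4OHT_siNT, 4 to 5 in 4OHT_siSMARCA4 over DMSO_siNT, 0 to 2 by set letters in either group and 0 to 1 in the set difference.

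The set names were not taken to pair the libraries: deviations of same-named sets correlated at -0.23 to 0.27, and not all above 0.1. These few pairs cannot show whether same-named sets share more than a name. With the set as a replicate block 0 members were called in 4OHT_siSMARCA4 over 4OHT_siNT (in edgeR CXCL10 1.77, adjusted p 0.198, CX3CL1 -1.68, adjusted p 0.124, and CCL20 0.28, adjusted p 0.882) and 236 genes in all. Under the block the sign turned for CCL2 (0.54) and CX3CL1 (0.067) in 4OHT_siNT over DMSO_siNT, CCL2 in 4OHT_siSMARCA4 over 4OHT_siNT (-0.21), ACKR3 between the siSMARCA4 siRNAs (0.058), and CCL20 (0.13) and CXCL10 (0.73) in the siRNA difference. None of these was called.

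In VM sets CCL2 turned to 0.44 in 4OHT_siNT over DMSO_siNT (0.44 also with the unlabelled library) and to -0.24 in 4OHT_siSMARCA4 over 4OHT_siNT (-0.36 with that library). CXCL12 by set letters in DMSO_siNT lay at -0.0037 (RLE), -0.0044 (upper quartile) and -0.0014 (DESeq2). The other signs that turned did so on leaving out 1 library, for values near 0. In 4OHT_siNT over DMSO_siNT CCL2 ran from -0.37 to 0.11 and CX3CL1 from -0.28 to 0.0049. By set letters CXCL12 in DMSO_siNT ran from -0.10 to 0.14 and CXCL10 in 4OHT_siSMARCA4 from -0.39 to 0.27. CXCL10 ran from -0.045 to 0.30 between the siNT siRNAs, from -0.26 to 0.24 between the siSMARCA4 siRNAs and from -0.37 to 0.14 in the siRNA difference. Between the siSMARCA4 siRNAs CX3CL1 ran from -0.51 to 0.13 and ACKR3 from -1.43 to 0.10.

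Counts over all genes moved more. The 6935 genes called in 4OHT_siNT over DMSO_siNT were 2822 with a change over 2-fold and 4356 with the block. The 1397 called in 4OHT_siSMARCA4 over 4OHT_siNT ranged from 236 to 4064 over the alternatives and from 923 (without the unlabelled library) to 3269 (without DMSO_siNT 4-2V). The 6635 called in 4OHT_siSMARCA4 over DMSO_siNT were 2732 in V sets. The alternatives gave 0 to 442 genes by set letters in DMSO_siNT, 1 to 157 in 4OHT_siSMARCA4, 0 to 134 in the set difference, 5 to 2970 and 0 to 51 between the siRNAs and 0 to 159 in the siRNA difference. Depth limits CX3CL1, CXCL14, CXCL16 and ACKR3, and CXCL12 in 4OHT.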
